A study of Mus musculus with 32 samples.

Results

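The transcription factors that set and maintain hepatocyte identity, together with the C/EBP factors that share their target genes, were followed in the liver of mice given lipopolysaccharide (LPS, or endotoxin, which Gram-negative bacteria shed). The 9 members were the genes whose array name equalled Hnf4a, Cebpa, Cebpb, Cebpd, Foxa3, Onecut1, Nr5a2, Rxra or Prox1. All 9 were measured, among 19204 genes tested. Liver RNA was hybridised to 32 Agilent 1-colour arrays, 1 sample each. The 16 wild-type samples (E2F1+/+, strain label B6x126 F2) comprised 6 given saline, 4 taken 6 h after LPS and 6 taken 20 h after LPS, and the 16 knockout samples (E2F1-/-, whose strain label joins B6, 129 and the allele) were divided in the same way. The labels do not state that each sample is a separate mouse, so p-values measure the spread between these samples. E2F1 is a transcription factor best known for cell cycle genes, and its loss was in the whole animal, with the deleted part, the LPS dose, the age and the sex not given in the sources used here. Saline livers carry the 20 h label, which means that the 6 h livers differ from them in time as well as in LPS. The tissue is labelled liver, while the extraction text names lung; the 9 measured of 10 hepatocyte markers had a summed level of 11.2 to 13 and the 2 measured of 4 lung epithelial markers summed to -3.70 ± 0.64 (SD) in the 6 saline livers of the wild type and -0.21 ± 0.91 in its 6 livers at 20 h of LPS. All levels are log2 signal minus that of the 75th percentile on the same array, unless called a change.

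Hepatocytes keep their character through a network of factors that bind near the same genes and near each other. HNF4A is a nuclear receptor that many plasma protein, lipid and bile acid genes require, C/EBPα drives metabolic genes of the resting adult liver, and C/EBPβ and C/EBPδ recognise the same DNA sequences but are known as activators of the acute-phase response, the burst of plasma proteins that follows infection. FOXA3 is a forkhead factor, ONECUT1 (HNF6) a cut-homeodomain factor, NR5A2 (LRH-1) a nuclear receptor of bile acid and cholesterol genes, RXRα the partner of many metabolic nuclear receptors, and PROX1 a homeodomain protein that restrains HNF4A and NR5A2 and also marks lymphatic endothelium.

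The 250 bases before the annotated start are shown for Cebpb and Cebpa, which moved in opposite directions. The sequences are from RefSeq, build GRCm38.p6, 5′ to 3′ on the gene's strand, which is + in each. Capitals mark matches, on either strand, to the short motifs named after them.
Cebpb, chr2:167688665-167688914: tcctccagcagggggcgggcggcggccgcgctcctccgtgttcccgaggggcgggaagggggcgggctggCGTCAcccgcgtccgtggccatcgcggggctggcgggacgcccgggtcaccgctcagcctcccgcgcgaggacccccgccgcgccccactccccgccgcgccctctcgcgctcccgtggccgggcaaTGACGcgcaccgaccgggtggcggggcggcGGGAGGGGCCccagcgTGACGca
Cebpa, chr7:35119043-35119292: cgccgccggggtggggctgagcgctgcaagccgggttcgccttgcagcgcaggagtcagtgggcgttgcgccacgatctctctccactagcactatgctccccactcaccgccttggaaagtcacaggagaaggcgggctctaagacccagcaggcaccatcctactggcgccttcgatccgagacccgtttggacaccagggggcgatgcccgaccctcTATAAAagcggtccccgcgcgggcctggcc
The motifs first searched were TTNNGNAAT (C/EBP), CAAAGTCCA (HNF4), TGTTTAC (FOXA), TTCNNNGAA (STAT), TGACGCAA (like the cAMP response element), TTTNNCGC (E2F) and the NF-kB motif (GGGA and CC with 4 bases between them). Of these, only the NF-kB motif matched any of the 12 windows of the 8 members with a sequence. It lay 23 bases before the start of Cebpb, 49 before Foxa3 and 197 before the downstream start of Prox1, and 17.6% of the 32851 windows of this length hold it. The other 6 had no match, against 10.2% of windows for C/EBP, 0.384% for HNF4, 3.17% for FOXA, 7.02% for STAT, 0.438% for TGACGCAA and 4.28% for E2F.
The remaining 3 motifs (an ONECUT core, the start of TGACGCAA and the TATA box) were picked after the member windows had been read, because they occur there. Their matches therefore support nothing and only describe the sequences. The start of that cAMP element, TGACG, in 17.8% of windows, lay 180, 53 and 7 bases before the Cebpb start and 139 before Onecut1. The TATA box, TATAAA, in 12.4% of windows counting either strand, lay 30 bases before Cebpa and 36 before Foxa3. Its reverse complement, TTTATA, lay 34 bases before the upstream start of Prox1 and 181 before that of Nr5a2. The ONECUT core, ATCAAT, in 6.72% of windows, lay 59 bases before the upstream Hnf4a start. A match is a string of letters, not a bound site, and a motif not found says nothing of the factor. Cebpd was not among the windows used.

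In the knockouts, 2 libraries went against their labels. An LPS score was computed per array, over the genes that changed in wild type at 6 h other than the 9 members, with wild-type saline averaging 0 and wild-type LPS 6 h averaging 1. The one labelled KO saline replicate 1 scored 0.885, whereas the remaining KO saline arrays scored -0.00499 to 0.0571. The one labelled KO LPS 6 h replicate 1 scored 0.126, whereas its group otherwise scored 0.896 to 0.976. The same slide held both. Each keeps its label here, and the counts and calls of members in knockouts are given with and without the pair. On the matching 20 h score, KO LPS 20 h replicate 4 reached 0.357, with 0.961 to 1.06 for the rest of that group. The 75th percentile of signal ran from 282 to 1138 over arrays, and the number of arrays limits the precision. The chosen probe of every member stood well above background on all 32 arrays. E2f1 was read only by probes at its 3′ end, which are no check of the deletion.

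**Figure D1:**
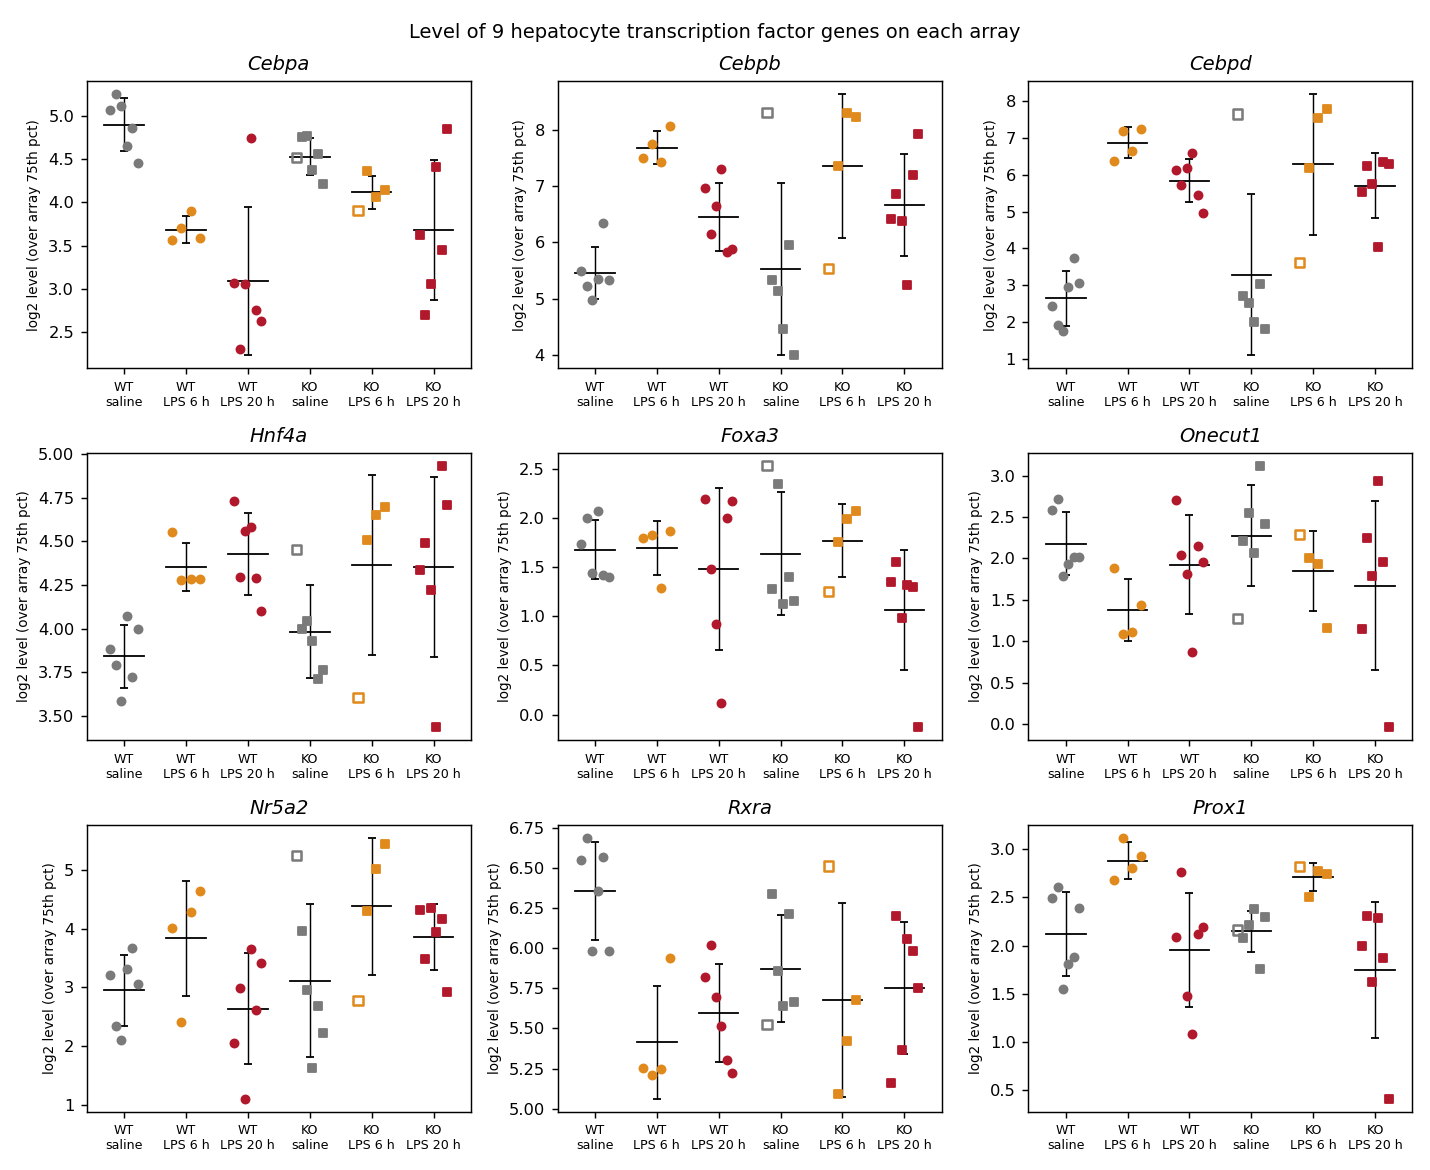
Level of each member on each of the 32 arrays (log2 signal relative to the array's 75th percentile), with circles for wild type, squares for knockout, a bar for the group mean and a whisker of 1 SD. Open squares are the 2 libraries that went against their labels, which sit near the opposite treatment for Cebpb (8.32 and 5.54) and Cebpd (7.65 and 3.62).

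In wild-type liver at 6 h of LPS the C/EBP genes moved apart: Cebpd and Cebpb rose and Cebpa fell. Rxra fell as well, and the other 5 members did not pass the test. With 4 of 9 members called (2 higher, 2 lower), the members were read against 28.5% of all genes called, 12.5% higher and 16% lower. Without the pair of knockout libraries, which here enter only the shared variance, the same count was 4, against 32.1% of genes. The median change of the 9 members was 0.51, against 0.01 over all genes tested.

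Cebpd, which encodes C/EBPδ, had the largest change of the 9. In the 6 wild-type saline livers it lay between 1.75 and 3.74 with a median of 2.69. In the 4 livers at 6 h of LPS it was 6.38, 7.20, 6.65 and 7.25. Every LPS liver was above every saline liver. The rise was 18.7-fold (log2 change 4.23 ± 0.80 SE, limma Benjamini-Hochberg adjusted p = 0.000221). Within the first and second scan dates the change was 4.06 and 4.55, and 4.41 with slide as a block.

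Cebpb lay between 4.98 and 6.35 in wild-type saline livers, with a median of 5.35. At 6 h it was 7.5, 7.75, 7.43 and 8.08. The groups did not overlap, although saline replicate 5 lay well above the other saline livers for this gene. The rise was 4.70-fold (log2 change 2.23 ± 0.59, limma adjusted p = 0.00509), 2.21 and 2.39 within the first and second scan dates, the latter with an adjusted p of 0.0723. The second Cebpb probe rose by 2.78 ± 0.68 (limma adjusted p = 0.00274).

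Cebpa went the other way. It lay between 4.46 and 5.25 in wild-type saline livers (median 4.96) and was 3.56, 3.70, 3.89 and 3.59 at 6 h. The groups did not overlap. The fall was 2.32-fold (log2 change -1.21 ± 0.35, limma adjusted p = 0.00961), with -1.36 ± 0.33 in its second probe. Within scan dates the change was -0.84 and -1.47, with adjusted p of 0.195 and 0.186.

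Rxra, whose product pairs with the receptors for bile acids, oxysterols and fatty acids, lay between 5.98 and 6.69 on saline (median 6.46). At 6 h it was 5.25, 5.21, 5.25 and 5.94, so that 3 livers sat close together and the fourth sat just under the lowest saline liver. The log2 change was -0.94 ± 0.26 (1.92-fold lower, limma adjusted p = 0.0063), and -0.86 and -0.66 within scan dates, where neither passed the test (adjusted p = 0.101 and 0.183). Its second probe changed by -0.22 ± 0.19 (adjusted p = 0.429), so the fall at this time rests on 1 of 2 probes.

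Hnf4a did not fall. It lay between 3.59 and 4.08 on saline and was 4.56, 4.28, 4.29 and 4.29 at 6 h, with no overlap between the groups. The change of 0.51 ± 0.23 did not pass the test (limma adjusted p = 0.104). Its other probes averaged -1.01 and -0.89 on saline and -1.06 and -0.60 at 6 h. On its chosen probe Prox1 was also above every saline value at 6 h, at 2.68, 3.12, 2.80 and 2.93 against 1.55 to 2.61. The change was 0.76 ± 0.30 (limma adjusted p = 0.0592). Its other probes averaged -1.40 and -1.90 on saline and -1.38 and -1.72 at 6 h, so the separation rests on the chosen probe.

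Nr5a2 was 4.01, 2.41, 4.28 and 4.64 at 6 h, against 2.10 to 3.68 on saline. Its livers overlapped with saline through replicate 2, and the change of 0.88 had a 95% interval from -0.32 to 2.09. Onecut1 (1.89, 1.08, 1.11 and 1.44 against 1.79 to 2.72) changed by -0.80, with an interval from -1.62 to 0.03. Foxa3 (1.80, 1.83, 1.29 and 1.87 against 1.4 to 2.07) changed by 0.02, with an interval from -0.72 to 0.76.

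At 20 h in wild type, against saline, Cebpd was higher, Cebpa and Rxra were lower, and Hnf4a was higher. Again 4 of 9 members were called (2 higher, 2 lower), against 36.6% of all genes (16.5% higher, 20.1% lower). The members' median change was -0.20, against -0.02 over all genes.

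Cebpd ranged from 4.95 to 6.59 at 20 h (median 5.92), above every saline liver and overlapping the 6 h livers. The rise over saline was 9.14-fold (log2 change 3.19 ± 0.71, limma adjusted p = 0.000849). The step from 6 to 20 h, -1.03 ± 0.80, did not pass the test (adjusted p = 0.332).

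Cebpb ranged from 5.83 to 7.30 (median 6.40), below every 6 h liver and overlapping saline only through saline replicate 5. Its change over saline was 1.01 ± 0.53 (limma adjusted p = 0.139), and 1.5 ± 0.61 in the second probe (adjusted p = 0.054). The call depends on the spread estimate: without the pair of knockout libraries the adjusted p was 0.028, in a fit that called 41.3% of genes, and quantile normalization gave 1.30 (adjusted p = 0.022). The step from 6 h was -1.23 ± 0.59 (adjusted p = 0.111, or 0.0181 without that pair, with 38.9% of genes called).

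Cebpa ranged from 2.30 to 4.74 (median 2.91). Of the 6 livers 5 were at 3.06 or lower, and replicate 4, at 4.74, lay inside the saline range. The fall was 3.49-fold (log2 change -1.80 ± 0.31, limma adjusted p = 5.3e-05; -1.71 ± 0.30 in the second probe). Within scan dates it was -1.92 and -1.15, the second with an adjusted p of 0.101. The step from 6 to 20 h, -0.59 ± 0.35, did not pass the test (adjusted p = 0.197).

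Hnf4a ranged from 4.10 to 4.73 (median 4.43), above the saline range. The rise was 1.5-fold (log2 change 0.58 ± 0.21, limma adjusted p = 0.0281). Its other probes changed by 0.69 ± 0.27 (adjusted p = 0.048) and 0.47 ± 0.30 (adjusted p = 0.228). The call was lost with slide as a block (0.56, adjusted p = 0.0731) and with arrays centred on their median (0.53, adjusted p = 0.0714), and within scan dates the change was 0.43 and 0.86 (adjusted p = 0.177 and 0.129).

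Rxra ranged from 5.22 to 6.02 (median 5.60) and overlapped saline only at 6.02. The log2 change was -0.76 ± 0.23 (limma adjusted p = 0.0104) and -0.65 ± 0.17 in the second probe (adjusted p = 0.00344). The call was lost under quantile normalization (-0.50, adjusted p = 0.0818), under normexp background correction (-0.50, adjusted p = 0.0603) and in the deposited processed values (-0.48, adjusted p = 0.0675). Within scan dates it was -0.70 and -0.94, both with an adjusted p under the threshold (0.0376 and 0.0199).

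Foxa3 ranged from 0.12 to 2.19, Onecut1 from 0.87 to 2.70, Nr5a2 from 1.1 to 3.65 and Prox1 from 1.08 to 2.76 at 20 h. All 4 overlapped saline, and none passed the test. Their 95% intervals were -0.86 to 0.46, -1.0 to 0.49, -1.39 to 0.76 and -0.72 to 0.38. The single call from 6 to 20 h was Prox1, with 34.3% of all genes called in that comparison. It fell by 0.93 ± 0.30 (limma adjusted p = 0.0175), and replicate 2 at 20 h (2.76) overlapped the 6 h livers.

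The same wild-type liver carried several of these departures at once. WT LPS 20 h replicate 4 had the highest Cebpa (4.74), Cebpb (7.30) and Cebpd (6.59) of its group and the lowest Foxa3 (0.12), Onecut1 (0.87) and Prox1 (1.08). On the 6 h scale it lay at 0.739, the highest of its group. In the knockouts, KO LPS 20 h replicate 6 shared part of this profile: the highest Cebpa (4.84) and Cebpb (7.93), the lowest Foxa3 (-0.12), Onecut1 (-0.03) and Prox1 (0.42), and the highest 6 h score (0.834). Its Cebpd, 6.31, was second to the 6.36 of replicate 5. Nr5a2 differed: it was the highest of its group in that wild-type liver (3.65) and the lowest of its group in that knockout liver (2.92).

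**Figure D2:**
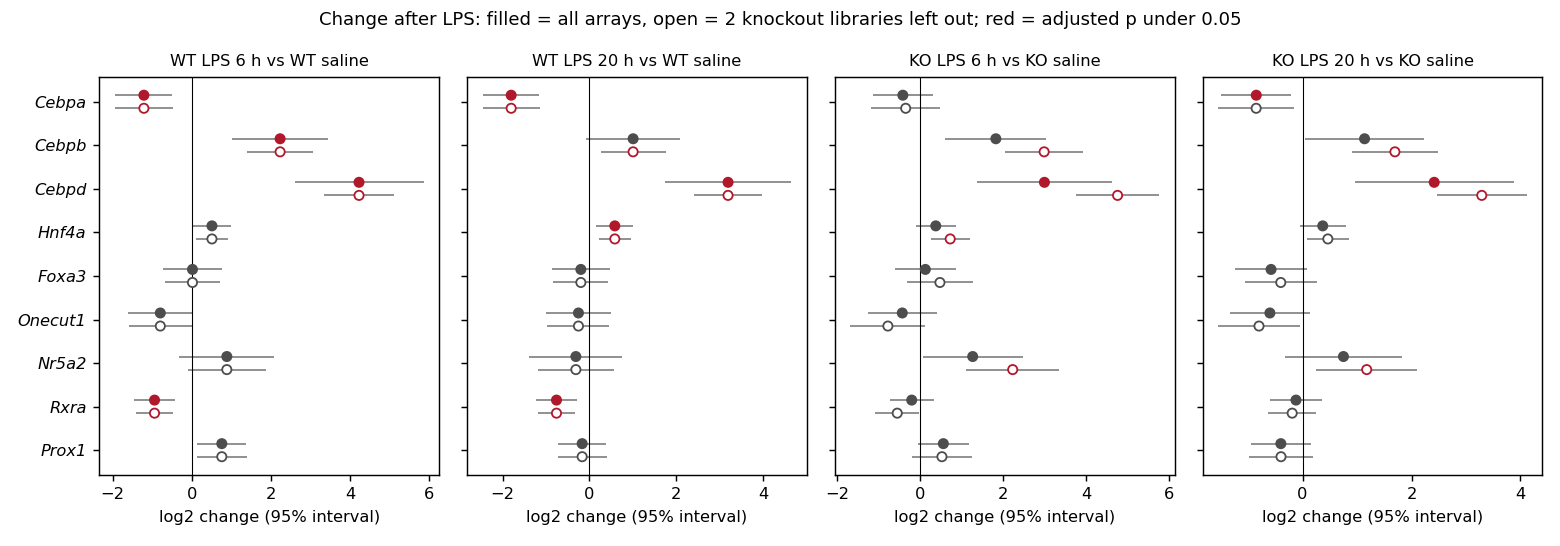
Log2 change of each member after LPS against saline of the same genotype, with 95% intervals, from the fit of all arrays (filled) and without the pair of knockout libraries (open); red marks an adjusted p under 0.05. Cebpd lies to the right of 0 in all 4 panels, at 4.23 and 3.19 in wild type and 3.0 and 2.42 in knockouts.

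In the knockouts at 6 h only Cebpd was called with all arrays kept, 1 of 9 members, against 2.61% of all genes called. Without the pair of odd libraries 4 of 9 were called, all higher, against 29.2% of all genes.

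Cebpd was 3.62, 6.20, 7.54 and 7.78 in knockouts at 6 h, and 1.82 to 7.65 on saline (median 2.60). Both groups overlapped only through the libraries labelled replicate 1. With them the change was 3.0 ± 0.80 (limma adjusted p = 0.0464), a call lost with slide as a block (2.80, adjusted p = 0.153) and when most single arrays of any group were left out; without them 4.76 ± 0.49 (adjusted p = 2.85e-08). In the third scan date, where that group has only its replicate 1, the change was -1.21; in the first and second it was 4.03 and 4.79.

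Cebpb was 5.54, 7.36, 8.30 and 8.23 at 6 h, and 4.00 to 8.32 on saline (median 5.23). The change was 1.83 ± 0.59 (limma adjusted p = 0.0743) with all arrays and 2.99 ± 0.46 without the pair (adjusted p = 1.29e-05), when the groups no longer overlapped.

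Nr5a2 was 2.78, 4.31, 5.02 and 5.44 at 6 h, and 1.63 to 5.25 on saline. Without the pair the remaining 3 LPS livers were above every saline liver, and the change was 2.23 ± 0.54 (limma adjusted p = 0.00233); with it, 1.27 ± 0.59 (adjusted p = 0.204). Hnf4a was 3.60, 4.51, 4.65 and 4.70, against 3.71 to 4.45 on saline. Its change was 0.73 ± 0.23 without the pair (adjusted p = 0.0157) and 0.38 ± 0.23 with it (adjusted p = 0.361).

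Cebpa did not pass the test in knockouts at 6 h. It was 3.91, 4.37, 4.06 and 4.14 against 4.21 to 4.77 on saline, a change of -0.41 ± 0.35 (adjusted p = 0.552), or -0.34 ± 0.41 without the pair. Rxra (5.09 to 6.51 against 5.52 to 6.34) changed by -0.20, or -0.55 ± 0.26 without the pair (adjusted p = 0.123). Prox1 (2.51 to 2.82 against 1.76 to 2.38) was above every saline liver with and without the pair. Its changes of 0.56 and 0.53 did not pass the test (limma adjusted p = 0.285 and 0.286). The other Prox1 probes did not rise, averaging -1.44 and -1.97 on saline and -1.80 and -2.06 at 6 h with all arrays. Onecut1 changed by -0.42 and Foxa3 by 0.13, or -0.77 and 0.48 without the pair, none called.

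At 20 h in knockouts 2 of 9 members were called with all arrays, Cebpd higher and Cebpa lower, against 26.3% of all genes. Cebpd ranged from 4.03 to 6.36 (median 6.00), with replicate 4 lowest, and changed by 2.42 ± 0.71 (limma adjusted p = 0.0125), or 3.29 ± 0.40 without the pair. Cebpa ranged from 2.70 to 4.84 (median 3.54), with replicate 4 inside the saline range and replicate 6 above it, and changed by -0.85 ± 0.31 (adjusted p = 0.0446). Without the pair the size was the same and the adjusted p was 0.0508.

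Without the pair Cebpb (5.25 to 7.93 at 20 h) was 1.70 ± 0.38 higher than saline (limma adjusted p = 0.00109) and Nr5a2 (2.92 to 4.35) was 1.18 ± 0.45 higher (adjusted p = 0.0435), giving 3 of 9 called, against 34.9% of all genes. With all arrays those changes were 1.14 and 0.75 and were not called. Hnf4a (3.44 to 4.93), Foxa3 (-0.12 to 1.55), Onecut1 (-0.03 to 2.93), Rxra (5.16 to 6.20) and Prox1 (0.42 to 2.30) were not called in either fit. From 6 to 20 h in knockouts Prox1 fell by 0.96 ± 0.30 (limma adjusted p = 0.0286; -0.93 and 0.0488 without the pair), the 1 call of 9, against 15.6% of all genes. Without the pair Cebpb (-1.30) and Cebpd (-1.47) fell over that step as well (-0.69 and -0.58 with all arrays, not called), 3 calls of 9 against 22.4% of genes.

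The direct comparisons of genotype showed 0 of 9 members called on saline, at 6 h and at 20 h, with and without the pair (limma). The share of all genes called was 0.333%, 1.26% and 0.323% with all arrays, and 0.354%, 1.34% and 0.521% without the pair. At an unadjusted limma p under 0.05, 1 member passed on saline (Rxra), 0 at 6 h and 1 at 20 h (Nr5a2). Without the pair, only Nr5a2 at 20 h passed. That threshold is looser, and the share of all genes passing it is not given here. These passes are therefore not read as results about the members. On saline Rxra averaged 6.36 ± 0.31 in the 6 wild-type and 5.87 ± 0.33 in the 6 knockout livers (SD), a difference of -0.48 with a 95% interval from -0.95 to -0.01 (limma adjusted p = 0.734). At 20 h Nr5a2 averaged 2.64 ± 0.94 in the 6 wild-type and 3.86 ± 0.56 in the 6 knockout livers (SD), a difference of 1.23 with an interval from 0.15 to 2.30 (adjusted p = 0.552). At 6 h Cebpa was 3.56 to 3.89 in wild type and 3.91 to 4.37 in knockouts, with a difference of 0.43 and an interval from -0.35 to 1.22. The 3.91 came from KO LPS 6 h replicate 1, a library that went against its label.

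For Cebpb and Cebpd the knockout minus wild-type difference had intervals of -1.01 to 1.16 and -0.81 to 2.10 on saline, -1.66 to 1.0 and -2.37 to 1.2 at 6 h, and -0.88 to 1.29 and -1.59 to 1.33 at 20 h. Without the pair they were -1.27 to 0.30 and -1.06 to 0.60, -0.71 to 1.26 and -0.74 to 1.35, and -0.54 to 0.95 and -0.92 to 0.66. The intervals are wide, and the missing calls do not show that the genotypes are alike. The difference between genotypes in the LPS response was not called for any member at either time (0 of 9, limma; 0.125% and 0.0417% of all genes with all arrays, 0.151% and 0.0573% without the pair). At an unadjusted limma p under 0.05 it passed for Rxra at 6 h and Cebpa at 20 h, and without the pair for Nr5a2 at 20 h alone. The share of all genes passing this looser threshold is not given either, so these passes are not read as results. For Cebpa that difference was 0.80 at 6 h (interval -0.21 to 1.82) and 0.95 at 20 h (0.05 to 1.86), and for Rxra 0.75 (0.00 to 1.49) and 0.64 (-0.03 to 1.31). Wild types and knockouts carry different strain labels, so strain differences and loss of E2f1 cannot be told apart for any member. This includes Hnf4a and Cebpb, whose probes lie 9.01 and 13.1 Mb from the E2f1 probe on chromosome 2.

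The shift in the C/EBP family can be read within each liver as the Cebpb signal minus the Cebpa signal, set to 0 at the wild-type saline mean. In wild type it was 0 ± 0.61 (SD, n = 6) on saline, 3.44 ± 0.39 (n = 4) at 6 h and 2.81 ± 0.52 (n = 6) at 20 h. No LPS liver of the wild type (2.0 to 3.93) reached the saline range (-0.69 to 0.94), including the liver whose Cebpa was high at 20 h. In the knockouts it was 0.44 ± 1.48 on saline (n = 6) and 2.68 ± 1.2 at 6 h (n = 4) with all arrays. It was -0.12 ± 0.61 (n = 5) and 3.22 ± 0.68 (n = 3) without the pair, whose own values were 3.24 for the library labelled saline and 1.08 for that labelled LPS. At 20 h it was 2.43 ± 1.16 (n = 6), from 0.28 in replicate 4 to 3.60. For Cebpd minus Cebpa the wild-type values were 5.44 ± 0.46 at 6 h and 5.0 ± 0.58 at 20 h. These are the levels above put together, with no further test.

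**Figure D3:**
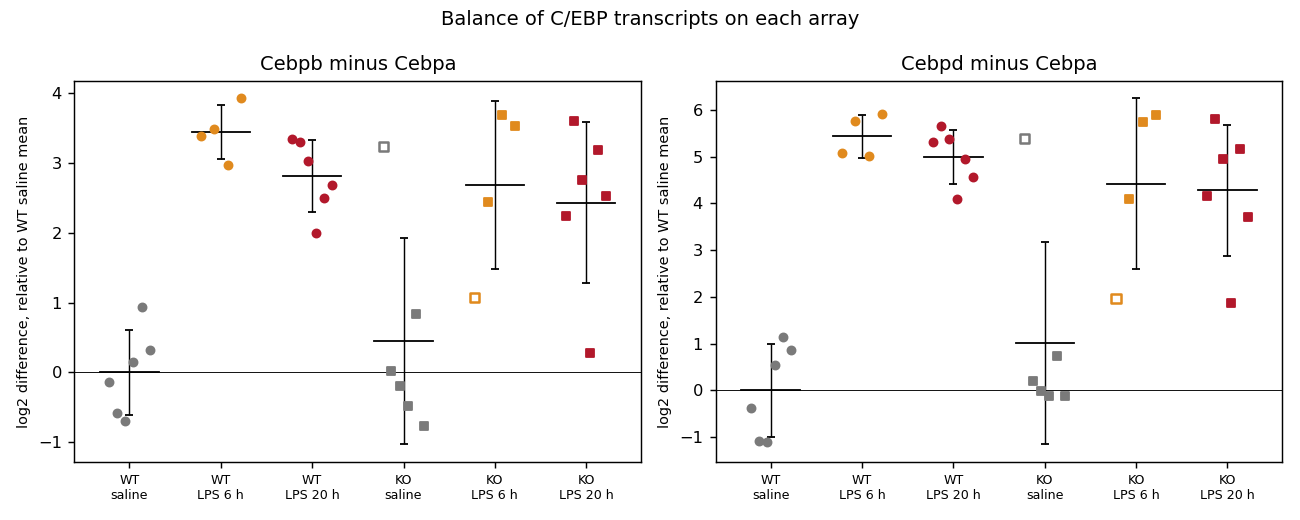
Difference between the Cebpb (left) or Cebpd (right) signal and the Cebpa signal on each array, in log2 units relative to the mean of wild-type saline, with group mean and 1 SD. Wild-type LPS livers lie from 2.0 to 3.93 in the left panel, above all wild-type saline livers, and the open squares are the pair of odd knockout libraries (3.24 and 1.08).

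Neutrophils and macrophages also express Cebpb and Cebpd, and neutrophil transcripts were likewise higher at 6 h of LPS than on saline. In wild type Cebpb and Cebpd averaged 7.69 and 6.87 at 6 h and 6.46 and 5.84 at 20 h. The neutrophil sum averaged 6.08 and 6.27. Those steps of Cebpb and Cebpd did not pass the test with all arrays. In knockouts without the pair Cebpb averaged 7.96 and 6.67, Cebpd 7.17 and 5.70, and the neutrophil sum 7.72 and 7.03. With all arrays these were 7.36 and 6.67, 6.28 and 5.70, and 6.60 and 7.03. The summed level of 9 measured of 10 neutrophil markers was 1.21 to 3.24 in wild-type saline livers, 5.80 to 6.60 at 6 h and 5.74 to 7.05 at 20 h, and 8 of 9 were called at each time; Cxcr2 was not measured. Camp and Mmp8, granule proteins of neutrophils, stood above background on 21 of 32 arrays each. Kupffer cell markers (9 of 10 measured) summed to 5.70 to 6.25, 4.85 to 6.40 and 4.12 to 5.97 in the same order. Hepatocyte markers summed to 11.6 to 12.5 on saline, 12.1 to 12.5 at 6 h and 11.2 to 12.1 at 20 h. Sinusoidal endothelial markers (8 of 8 measured) summed to 5.13 to 5.84 on saline, 3.99 to 5.0 at 6 h and 3.51 to 5.03 at 20 h. The part of these cells in the members' changes was not tested, and in bulk tissue fewer cells of a type and less RNA per cell cannot be told apart. The lymphatic endothelial list (3 of 4 measured) holds Prox1 itself beside Flt4 and Ccl21a, and summed to 1.88 to 2.75 on saline, 2.83 to 3.21 at 6 h and 1.26 to 2.82 at 20 h in wild type.

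Several members had more than 1 probe, and the probes of Onecut1, Prox1, Hnf4a and Rxra did not always move alike. In knockouts an Hnf4a probe averaged -0.76 on saline and -1.03 at 20 h, while the chosen probe averaged 3.98 and 4.35. From 6 to 20 h in wild type the chosen Rxra probe averaged 5.41 and 5.60, and the other 0.04 and -0.39. The second Onecut1 probe, on chromosome 9 at 74700239 to 74700298 (mm9, the build of the array design), was designed on another transcript record. It fell by 2.17 ± 0.45 at 20 h in wild type (limma adjusted p = 0.000387) and by 1.64 ± 0.45 in knockouts (adjusted p = 0.0076; -1.84 ± 0.46 without the pair), while the chosen probe changed by -0.25 and -0.60 without a call. It was dim: 5 of 6 livers stood above background in each 20 h group. The chosen Prox1 probe, on chromosome 1 at 191942646 to 191942705, changed by -0.17 at 20 h in wild type, while the other 2 probes rose by 0.81 ± 0.23 and 0.75 ± 0.24 (adjusted p = 0.00717 and 0.0137). The mean over the Prox1 probes rose by 0.46 at that time (adjusted p = 0.0368). So the direction for Prox1 depends on the probe, and its fall from 6 to 20 h was not seen in the mean over its probes (0.15, adjusted p = 0.597). For Cebpa and Cebpb both probes moved the same way.

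**Figure D4:**
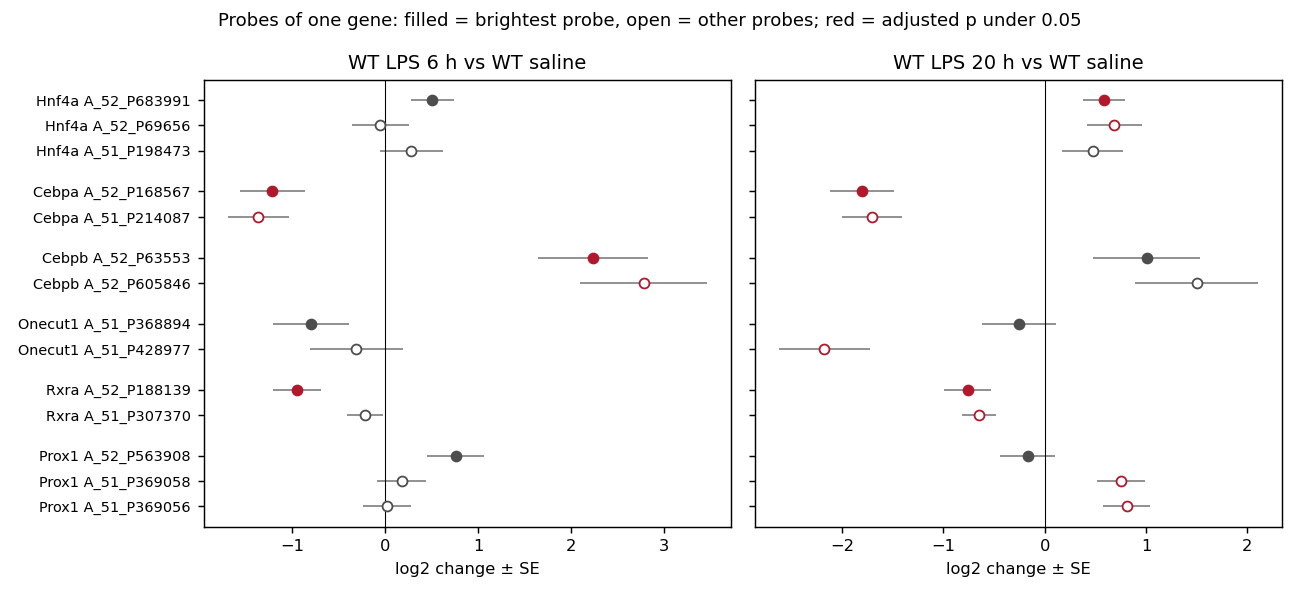
Log2 change after LPS in wild type, with SE, for each probe of the 6 members that had more than 1; filled points are the brightest probe, which stood for the gene, and red marks an adjusted p under 0.05. At 20 h the Onecut1 probes lie at -0.25 and -2.17, and the Prox1 probes at -0.17, 0.75 and 0.81.

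The genes around the members were grouped by known dependence, and their wild-type counts stand beside the 12.5% of all genes called higher and 16% lower at 6 h, and 16.5% and 20.1% at 20 h. Of 11 acute-phase genes known as C/EBPβ and C/EBPδ targets, 9 rose at 6 h in wild type and 9 at 20 h, none fell, and the median change was 1.76 and 2.30. The list holds genes of the acute-phase response and was chosen with earlier results of these data known. The rise of these genes is therefore no test of C/EBPβ or C/EBPδ. Lcn2, which binds bacterial siderophores, rose by 7.5 ± 1.29 at 6 h (limma adjusted p = 8.7e-05) and by 8.06 at 20 h, and Saa3, a serum amyloid A protein, by 4.45 ± 0.95 and 4.45. Complement C3 changed by 0.15 and -0.27, without a call. In the knockouts 6 of 11 rose at 6 h with all arrays and 10 of 11 without the pair, and 9 of 11 at 20 h in both fits. Of all genes, 2.61% and 29.2% were called in those fits at 6 h, and 26.3% and 34.9% at 20 h.

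Genes known as HNF4A-dependent were lower or not called at both times. At 6 h 4 of 15 were lower and none higher, a called share close to the 28.5% of all genes called, with a median change of -0.25. At 20 h 10 of 15 were lower and none higher, against 36.6% of all genes called, with a median of -1.39, while Hnf4a itself was 0.58 higher. At 6 h Cyp8b1 changed by -2.73 ± 0.61 (limma adjusted p = 0.00114) and Cyp7a1 by -8.34, with 1 of 4 LPS livers above background, while Apoa2, an apolipoprotein gene, changed by 0.11 without a call. At 20 h Slc10a1, the bile acid uptake carrier, fell by 4.24 ± 0.42 (limma adjusted p = 3.6e-08), and Cyp8b1, a sterol hydroxylase of bile acid synthesis, fell by 3.27 ± 0.55. Cyp7a1, the rate-limiting enzyme of that pathway, changed by -9.34, a size that is not exact because 1 of 6 LPS livers stood above background. Apoc2 changed by -0.33 without a call. In the knockouts 0 of 15 were called at 6 h with all arrays and 5 were lower without the pair, and at 20 h 8 of 15 were lower in both fits. Of all genes 2.61% and 29.2% were called in those fits at 6 h, and 26.3% and 34.9% at 20 h. The share without the pair at 6 h was thus close to that of all genes.

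Genes known as NR5A2 targets were lower in 2 of 6 cases at 6 h and 5 of 6 at 20 h (median -1.86 and -2.41). Of all genes 28.5% and 36.6% were called, so the share at 6 h was close to that of all genes. Cyp7a1 and Cyp8b1 stand in this list and the one before. The sterol transporter genes Abcg8 and Abcg5 changed by -1.90 ± 0.44 and -1.43 ± 0.34 at 20 h, both called, and Nr0b2 (SHP, a corepressor) by -2.92 ± 0.96. Without the pair Nr5a2 was higher in the knockouts at both times. In that fit 3 of 6 targets were lower at 6 h and 4 of 6 at 20 h, and none was higher, with 29.2% and 34.9% of all genes called. With all arrays 0 of 6 were called at 6 h and 3 of 6 were lower at 20 h, against 2.61% and 26.3% of all genes. Of 7 measured metabolic genes known as C/EBPα-dependent, G6pc (glucose-6-phosphatase) fell by 5.27 ± 0.84 and Gys2 (liver glycogen synthase) rose by 1.07 ± 0.32 at 6 h. These were the only calls at that time, a share close to the 28.5% of all genes called. At 20 h Cps1, of the urea cycle, and Gys2 changed by -2.86 ± 0.31 and -1.87 ± 0.28. No other gene of the list was called then, against 36.6% of all genes. Alb (albumin) was not called at 6 or 20 h (0.11 and -0.32).

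Among 24 measured other hepatocyte factors and cofactors, 13 fell and 1 rose at 6 h (median -0.94), and 10 fell and 1 rose at 20 h (median -0.69). Hhex, a homeobox factor of liver development, fell by 3.73 ± 0.75 at 6 h (limma adjusted p = 0.00041) and changed by -0.65 at 20 h without a call. Gata6 was the one that rose, by 2.85 ± 0.46 and 2.24 ± 0.42. Of the other RXR genes, Rxrb fell by 1.06 ± 0.17 at 6 h and changed by 0.02 at 20 h, and Rxrg changed by 0.99 without a call at 6 h and fell by 2.51 ± 0.39 at 20 h. Foxa2 and Foxa1 were not called at either time (-0.53 and -1.02 at 6 h). Among 8 other C/EBP and bZIP genes, Nfil3, Trib1 (an adaptor known for targeting C/EBPα for degradation) and Cebpg rose at 6 h by 3.14 ± 0.84, 2.18 ± 0.60 and 1.08 ± 0.25. At 20 h Ddit3 (CHOP), Nfil3 and Atf4 rose by 2.89 ± 0.44, 2.09 ± 0.75 and 1.36 ± 0.36, and the clock output gene Dbp fell by 3.32 ± 0.76.

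**Figure D5:**
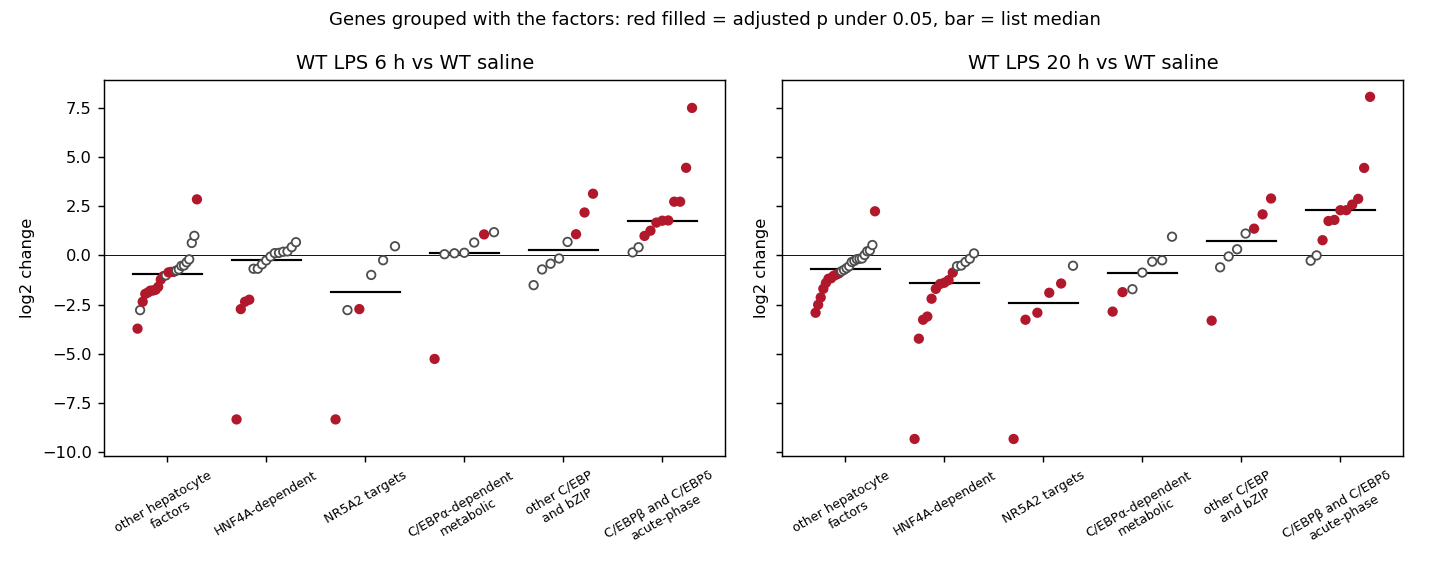
Log2 change in wild type at 6 h (left) and 20 h (right) for each measured gene of the 6 lists; red filled points have an adjusted p under 0.05 and the bar is the list median. The median of the acute-phase list lies above 0 (1.76 and 2.30), and that of the HNF4A-dependent list moves from -0.25 to -1.39.

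The genes whose pattern over the 32 arrays lay closest to each member were found by the root mean square difference after each gene was set to its own mean, over 13709 genes measured on all arrays. For Cebpb they were Nfkbia, an inhibitor of NF-kB, and Iigp1, an interferon-induced GTPase (0.38 and 0.40 log2 units, against an SD of 1.2 for Cebpb itself). For Cebpd they were Serpina3g and Cpne8 (0.52 and 0.55, SD 1.99). For Cebpa they were Atp5sl and Acad10 (0.45 and 0.50, SD 0.81), and for Rxra Ndst1 and Zfand2b (both 0.21, SD 0.46). For Hnf4a they were Ythdf2 and Tmed2 (0.21 and 0.23, SD 0.39), for Prox1 Cdkl2 and Msl3 (0.33 and 0.38, SD 0.57) and for Foxa3 Msl3 and Riok2 (0.38 and 0.40, SD 0.57). Onecut1 was nearest to Tmem42 and Mudeng (0.40 and 0.41, SD 0.66), and Nr5a2 to Slc10a2, a bile acid carrier, and Dhrs13 (0.73 and 0.75, SD 1.06).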

How the data were processed

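Per the file headers, the authors scanned 1-colour Agilent arrays and deposited an intensity per spot from Feature Extraction 10.7.1.1. The deposited processed table, used as an alternative, holds log2 values with no normalization stated for them. Control and outlier spots were left out; log2 processed signal minus the array's 75th percentile was averaged per probe. Of 41174 probes 28345 stood above background on at least 4 arrays; the brightest probe stood for each of 19204 gene names.

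All 32 arrays were fitted with 1 mean per group in limma 3.58.1 (R 4.3.3, eBayes, tested on simulated data). Called means a two-sided Benjamini-Hochberg adjusted p under 0.05 over all genes of a comparison; 11 comparisons were made. Members and gene lists were chosen with earlier results of these data known; 4 of the 12 motifs were chosen after the member windows were read, when 7 of the first 8 had no match there. Of the 12, 2 motifs and 1 listed gene are not reported here. Named genes are all members, 2 nearest genes each, and per list up to 3 of the called genes with the largest change. The brightest uncalled gene is named for some lists only. Other list genes were picked after seeing values. The 9 slides and 3 scan dates hold several groups each; the third holds no wild-type saline array. Nothing in the labels pairs replicate numbers across groups, and same-numbered arrays did not deviate together (median r 0.014, other pairs -0.008).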

Additional observations from a re-analysis of the deposited data

Results flagged for a closer look

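Of 54 member-by-group sets, 9 held an array far from the rest by Dixon's test, which marks about 1 in 20 sets by chance. Among saline livers these were Cebpb in WT saline replicate 5 (6.35, high) and Cebpd in KO saline replicate 1 (7.65, high). At 6 h in wild type they were Hnf4a in replicate 1 (4.56, high), Foxa3 in replicate 3 (1.29, low) and Rxra in replicate 4 (5.94, high). At 20 h they were Cebpa in WT LPS 20 h replicate 4 (4.74, high), Cebpd in KO LPS 20 h replicate 4 (4.03, low), and Foxa3 (-0.12) and Prox1 (0.42) in KO LPS 20 h replicate 6, both low.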

How the results depend on the processing

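Against 4, 4 and 1 members called in wild type (6 h and 20 h against saline, 20 h against 6 h) and 1, 2 and 1 in knockouts, the counts that moved by over 1.5 times were these. With only the groups compared in the fit they were 7 (wild type, 6 h) and 3 (20 h against 6 h), and 0 in each knockout comparison. At an adjusted p under 0.01, wild type at 20 h gave 2 and 20 h against 6 h gave 0, and the knockouts 0 in each. Within scan dates, no count is given for a comparison with 1 array in a group. The first date held 1 array at 6 h of LPS in each genotype, and knockouts gave 4 at 20 h against saline. The second held 1 wild-type array at 6 h. It gave 2 in wild type at 20 h against saline, and 2, 0 and 0 in knockouts. In the third, without wild-type saline arrays, wild type could not be compared with saline. Knockouts at 20 h against saline gave 0 there. Slide as a block gave 2 in wild type for 20 h against 6 h, and 0 and 1 in knockouts at 6 and 20 h. No filter gave 0 and 1 in knockouts, and normexp 0 at 6 h. Median centring gave 1 in knockouts at 20 h. For 20 h against 6 h the count was 0 in wild type under the mean over probes and median centring, and 0 in knockouts under these, quantile normalization, normexp and the deposited table. Chosen after seeing the data, leaving out the pair of knockout libraries gave 3 (wild type, 20 h against 6 h) and 4 and 3 in knockouts (6 h; 20 h against 6 h), and 4, 5, 5 and 3 with slide as a block as well. Leaving out KO LPS 20 h replicate 4 too gave 3 in wild type for 20 h against 6 h, and 4, 5 and 2 in knockouts. The cause was not tested.

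With the replicate number as a block the knockout counts were 0, 1 and 0; it moved no wild-type or genotype count by over 1.5 times. Leaving out single arrays gave 4 to 5, 3 to 4 and 1 to 2 in wild type, and 0 to 4, 1 to 4 and 0 to 1 in knockouts. The wild-type count at 6 h was 5 without WT saline replicate 2, WT LPS 20 h replicate 2 or 4, or KO LPS 20 h replicate 6; at 20 h it was 3 without WT saline replicate 3 or 5, or WT LPS 20 h replicate 1, 3 or 4. For 20 h against 6 h it was 2 without WT LPS 20 h replicate 4 or KO saline replicate 1. The knockout count at 6 h was 4 without KO LPS 6 h replicate 1, 3 without KO saline replicate 1 and 0 without most other arrays. At 20 h it was 4 without KO LPS 20 h replicate 4 and 1 without KO saline replicate 2, 3, 4 or 5 or KO LPS 20 h replicate 1, 2, 3 or 5. For 20 h against 6 h it was 0 without KO LPS 6 h replicate 1, 3 or 4 or KO LPS 20 h replicate 3 or 6. The genotype comparisons and interactions stayed at 0 in every setting run. Reversed signs were Prox1 under the mean over probes (0.46 at 20 h and 0.15 for 20 h against 6 h, wild type) and Cebpd in knockouts at 6 h within the third scan date (-1.21). The median change over all genes in wild type at 6 h shifted by -0.16 under quantile normalization.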
